A study of Mus musculus with 18 samples.

Results

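The subject was a set of 9 genes that neuronal activity and growth signals induce and that mostly restrain the signals inducing them, followed across hippocampal RNA-seq libraries: Dusp1, Dusp4, Dusp5, Dusp6, Btg2, Sik1, Trib1, Ier2 and Ier5. They were named by symbol, with earlier results of these data known, and all 9 were found among the 57180 gene identifiers of the deposited table and among the 16738 genes that passed the filter on low counts. The libraries came from adolescent male C57BL/6J mice labelled wild type, 1 library per mouse and 6 mice per group. Control mice had no treatment. Another group was exposed to chronic social defeat stress (CSDS), in which a mouse is repeatedly attacked by an aggressive resident. The remaining group went through the same stress and also received aerobic exercise training, which began a week before the defeats and lasted until they ended. Tissue was taken after behavioural tests, and no group was trained without stress, so an effect of training alone was not measured. The hippocampus was taken whole, and in such bulk RNA fewer cells of a type and less RNA per cell cannot be told apart.

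When a neuron fires or a growth factor binds its receptor, the Ras-ERK, JNK and p38 kinase cascades and cyclic AMP and calcium signals activate transcription factors such as CREB, the serum response factor and the ETS factors, and a wave of immediate early genes is transcribed within minutes. Part of that wave encodes transcription factors such as Fos and Egr1, and part encodes proteins that shut the signal off. In the hippocampus, immediate early RNA follows recent neuronal firing and fades soon after it, so its level depends on what the animal was doing shortly before the tissue was taken. The Dusp genes encode dual specificity phosphatases that remove the activating phosphates of the MAP kinases: Dusp1 acts in the nucleus on JNK, p38 and ERK, Dusp4 in the nucleus mainly on ERK and JNK, Dusp5 in the nucleus on ERK, and Dusp6 in the cytoplasm on ERK. Sik1, a salt-inducible kinase, phosphorylates the CRTC coactivators and keeps them out of the nucleus, which lowers CREB activity. Trib1, a pseudokinase, brings target proteins to the ubiquitin ligase COP1. Btg2 recruits the CCR4-NOT deadenylase and restrains proliferation. Ier2 and Ier5 encode nuclear immediate early proteins, and Ier5 is a partner of the phosphatase PP2A.

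RefSeq promoter windows (GRCm38.p6, 250 bases before to 50 bases after the start of the gene) were matched for 5 of the 9 genes, Dusp1, Dusp5, Dusp6, Btg2 and Ier5, and 3 of them are shown because they hold sites for the factors named above. Capitals mark the cyclic AMP response element (CRE, TGACGTCA) and its core TGACG in Dusp1 and Btg2, and in Dusp5 a pair of CArG boxes, the site of the serum response factor, and 1 CRE core. Both strands were searched, and each full CRE also holds the core on both strands.
Dusp1 (chr17:26508423-26508722, minus strand): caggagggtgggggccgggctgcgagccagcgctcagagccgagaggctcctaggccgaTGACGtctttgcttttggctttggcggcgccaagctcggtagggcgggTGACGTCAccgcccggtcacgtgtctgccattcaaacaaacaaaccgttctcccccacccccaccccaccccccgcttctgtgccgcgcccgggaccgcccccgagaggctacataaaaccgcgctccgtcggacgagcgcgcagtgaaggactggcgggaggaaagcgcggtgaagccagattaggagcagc
Btg2 (chr1:134079106-134079405, minus strand): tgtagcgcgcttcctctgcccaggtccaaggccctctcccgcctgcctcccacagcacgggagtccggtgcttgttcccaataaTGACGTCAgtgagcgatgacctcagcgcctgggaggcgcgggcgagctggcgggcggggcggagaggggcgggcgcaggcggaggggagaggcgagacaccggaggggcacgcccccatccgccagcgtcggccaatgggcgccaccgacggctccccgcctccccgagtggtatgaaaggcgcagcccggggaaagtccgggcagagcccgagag
Dusp5 (chr19:53528895-53529194, plus strand): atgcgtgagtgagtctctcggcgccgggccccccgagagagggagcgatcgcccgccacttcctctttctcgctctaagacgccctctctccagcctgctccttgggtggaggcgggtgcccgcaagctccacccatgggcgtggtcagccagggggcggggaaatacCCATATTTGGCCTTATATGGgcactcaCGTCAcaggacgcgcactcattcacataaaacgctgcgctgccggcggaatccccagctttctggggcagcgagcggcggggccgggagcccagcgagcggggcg
The full CRE began 143 bases before the start of Dusp1 and 166 bases before that of Btg2, and a match was present in 1.79% of all 32851 windows. Dusp1 held 1 further core 191 bases before its start. The CRE core alone was present in 3 of the 5 windows and in 20.8% of all windows. The adjacent CArG boxes of Dusp5 began 82 and 72 bases before its start, and such a box was present in 1.63% of all windows. None of the 5 windows held the AP-1 site (TGAGTCA or TGACTCA, 5.2% of all windows), the ETS site CCGGAAG (8.86%), the EGR site GCGTGGGCG (0.612%), the glucocorticoid response element (0.00913%) or the TATA box letters TATAAA (13.6%). These matches describe the letters in the windows only.

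Total estimated counts were 18911080 to 24136591 per library, and the 9 genes had between 70 and 3242 counts each in a library. Several libraries differed in the tissue they held. Control replicate 2 held a summed level of 12 neocortical neuron markers of 1928 CPM (counts scaled to a common library size, here by TMM), against 503 to 790 in the other 17 libraries, and its dentate granule cell marker Prox1 was at 10.4 CPM, against 83.5 to 145. C1ql2, another granule cell marker, was at 0.408 CPM there and at 40.7 to 142 CPM elsewhere, and the cortical markers Lamp5 and Tbr1 were at 259 and 164 CPM, against highest values of 42.8 and 58.9 CPM in the other libraries. The summed level of 10 granule cell markers was 394 CPM in that library and 673 to 1051 CPM elsewhere. The 1051 CPM was that of exercised replicate 4, and the next highest library was at 841 CPM. Exercised replicate 4 also had the lowest summed interneuron markers (602 CPM) and the highest summed microglia markers (570 CPM) of the study. Summed markers of thalamic neurons were raised in control replicates 1 and 3 (428 and 801 CPM) and in exercised replicates 3 and 6 (492 and 1171 CPM), against 141 to 200 CPM in the other 14 libraries. Summed choroid plexus markers ran from 20.4 to 8650 CPM, with both low and high libraries in every group. Exercised replicate 6 had the lowest Dusp5 and Dusp6 levels of the study and exercised replicate 3 the lowest Sik1 level. Results that rest on control replicate 2 are given with and without it below, and counts are also given without the 4 libraries with raised thalamic markers. The part of tissue composition in the results beyond that was not tested.

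Levels were compared between genes per kilobase of merged exons. Dusp6 (17.8 ± 4.74 CPM per kb, SD, n = 18) and Ier5 (17.5 ± 7.40) had the highest levels. They did not differ beyond their spread, although Dusp6 was the higher in 13 of 18 libraries. Ier5 in turn exceeded Dusp4, the next in order, in all 18 libraries, and this was the one step between neighbours that was larger than their spread. Dusp4 (8.40 ± 2.16), Dusp5 (8.14 ± 2.25), Btg2 (7.28 ± 1.23) and Dusp1 (5.89 ± 3.40) followed with levels that lay within each other's spread. Ier2 (4.45 ± 2.06), Sik1 (2.87 ± 0.754) and Trib1 (2.30 ± 1.14) were the lowest, again with no step beyond the spread. Compared library by library, Btg2 exceeded Dusp1, Dusp1 exceeded Ier2, Ier2 exceeded Sik1 and Sik1 exceeded Trib1 in 16 of 18 libraries each. Dusp4 exceeded Dusp5, and Dusp5 exceeded Btg2, in 10 of 18 each.

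Across the study, 8 of the 9 genes had their highest mean in control mice, an intermediate mean in CSDS mice and their lowest mean in exercised CSDS mice, and Dusp4 was the exception. Without control replicate 2 this order was seen in 5 of the 9 genes, and all 9 had their lowest mean in exercised CSDS mice. Differences passing the adjusted threshold were not found: with edgeR's quasi-likelihood test and Benjamini-Hochberg adjustment over all genes tested, 0 of the 9 genes passed 0.05 in any of the 3 comparisons. Few genes passed at all, namely 0% in CSDS against control, 0% in exercised CSDS mice against CSDS mice and 0.0179% (3 genes) in exercised CSDS mice against control. At an unadjusted p under 0.05, 8 of the 9 genes were lower in exercised CSDS mice than in control mice, where 4.39% of all genes were lower and 6.8% higher. Dusp4 was the gene left out.

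**Figure D1:**
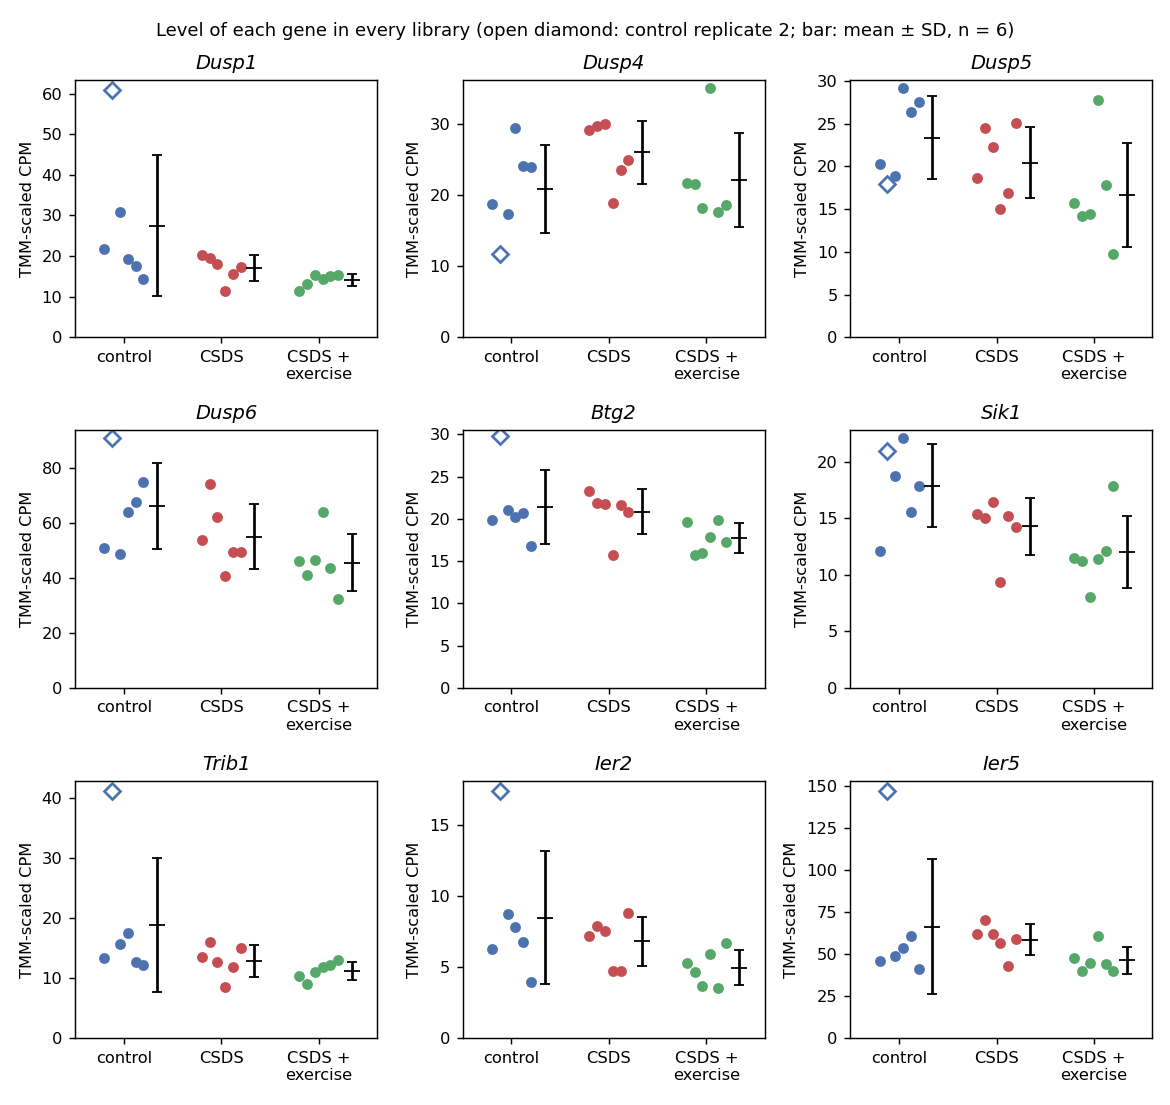
Level of each of the 9 genes in every library, in TMM-scaled CPM on axes that start at 0, by group, with the group mean and SD (n = 6) beside the points and control replicate 2 as an open diamond. The diamond is the highest point for Dusp1, Dusp6, Btg2, Trib1, Ier2 and Ier5 and the lowest for Dusp4, and the exercised CSDS mice have the lowest mean for every gene except Dusp4.

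The nuclear phosphatase gene Dusp1 (chr17:26505591-26508472) had the largest log2 difference between exercised CSDS mice and control mice among the 9 with all libraries, a rank that rested on control replicate 2: without it Dusp1 and Dusp5 were level at -0.56. In control mice its level ranged from 14.3 to 60.9 CPM with a median of 20.5, in CSDS mice from 11.4 to 20.1 CPM with a median of 17.7, and in exercised CSDS mice from 11.4 to 15.3 CPM with a median of 14.7. All 6 exercised mice lay below the control median and 3 of them below every control mouse, so the groups overlapped only at the low end of the control range. The 60.9 CPM of control replicate 2 was 2.93 times the mean of the other 5 control mice (20.8 ± 6.28). The fitted log2 fold change of exercised CSDS mice against control was -0.96 ± 0.27 (SE, edgeR, adjusted p = 0.21), and without control replicate 2 it was -0.56. DESeq2 gave -0.97 with an adjusted p of 0.0479 and called 0.589% of all genes in this comparison, and adjusted p over the 27 settings ran from 0.0479 to 0.702. The call of Dusp1 by DESeq2 was lost when control replicate 2 was left out. Against control, CSDS mice differed by -0.69 ± 0.27 (edgeR, adjusted p = 0.993), or by -0.29 without control replicate 2. Between exercised and other CSDS mice the log2 difference was -0.28 ± 0.27 (adjusted p = 0.62).

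Dusp4 (chr8:34807610-34819894), the other nuclear phosphatase gene with activity on JNK, did not follow this pattern. Its level ranged from 11.7 to 29.4 CPM in control mice (median 21.4), from 18.8 to 30.0 CPM in CSDS mice (median 27.1) and from 17.7 to 35.05 CPM in exercised CSDS mice (median 20.1). The 11.7 CPM of control replicate 2 was the lowest value of the gene in the study, and the 35.05 CPM of exercised replicate 4 the highest. CSDS mice had the highest mean, 26.0 ± 4.43 CPM (SD, n = 6), and 2 of them lay above every control mouse. The log2 fold changes were 0.32 ± 0.20 in CSDS against control, -0.23 ± 0.20 in exercised CSDS mice against CSDS mice and 0.09 ± 0.20 in exercised CSDS mice against control, with edgeR adjusted p of 0.993, 0.567 and 0.898. Without control replicate 2 the first of these was 0.20 and the last -0.04, and without exercised replicate 4 the last was -0.12.

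Dusp5 (chr19:53529145-53541809), which acts on ERK in the nucleus, ranged from 17.9 to 29.2 CPM in control mice with a median of 23.3. In CSDS mice it ranged from 15.0 to 25.1 CPM with a median of 20.5, and in exercised CSDS mice from 9.73 to 27.8 CPM with a median of 15.1. Of the 6 exercised mice 5 lay below every control mouse, and the other one, exercised replicate 4 at 27.8 CPM, lay above the control median. The log2 fold change of exercised CSDS mice against control was -0.49 ± 0.20 (edgeR, adjusted p = 0.386), and -0.56 without control replicate 2. Against CSDS mice it was -0.30 ± 0.20 (edgeR, adjusted p = 0.47), and -0.52 without exercised replicate 4. CSDS mice differed from control by -0.19 ± 0.20.

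The cytoplasmic ERK phosphatase gene Dusp6 (chr10:99263231-99267489) ranged from 48.9 to 90.9 CPM in control mice (median 65.9), from 40.9 to 74.4 CPM in CSDS mice (median 51.7) and from 32.3 to 64.2 CPM in exercised CSDS mice (median 45.0). As with Dusp5, 5 of the 6 exercised mice lay below every control mouse and exercised replicate 4 was the exception. The mean of control mice moved less with replicate 2 than for Dusp1, and the other 5 averaged 61.3 ± 11.1 CPM. Exercised CSDS mice differed from control by a log2 fold change of -0.54 ± 0.17 (edgeR, adjusted p = 0.273), or -0.43 without control replicate 2. With all libraries in edgeR, the differences of CSDS mice from control and of exercised from other CSDS mice were equal in size, -0.27 ± 0.17 each. This equality includes control replicate 2, which had the highest Dusp6 level of the study. Voom with sample quality weights gave -0.08 and -0.38.

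Sik1 (chr17:31844248-31855804), the kinase that holds CRTC coactivators in the cytoplasm, ranged from 12.1 to 22.1 CPM in control mice (median 18.3). CSDS mice lay between 9.35 and 16.5 CPM (median 15.1), and all 6 lay below the control median. Exercised CSDS mice lay between 7.99 and 17.8 CPM (median 11.4), with 4 of them below every control mouse. Of the 9 genes Sik1 depended least on control replicate 2 among those lower in exercised CSDS mice, with a log2 fold change against control of -0.57 ± 0.18 (edgeR, adjusted p = 0.258) and -0.52 without that library. The difference of CSDS mice from control was -0.33 ± 0.18 (edgeR, adjusted p = 0.993), and that of exercised from other CSDS mice -0.25 ± 0.18 (edgeR, adjusted p = 0.483).

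Trib1 (chr15:59648654-59657099), the pseudokinase gene, resembled Dusp1. It ranged from 12.3 to 41.2 CPM in control mice (median 14.6), from 8.52 to 16.02 CPM in CSDS mice (median 13.1) and from 8.999 to 13.03 CPM in exercised CSDS mice (median 11.5). The control maximum was again replicate 2, at 2.87 times the mean of the other 5 (14.4 ± 2.26 CPM). Of the 6 exercised mice 5 lay below every control mouse. The log2 fold change of exercised CSDS mice against control was -0.74 ± 0.25 (edgeR, adjusted p = 0.286), and it was -0.35 without control replicate 2. CSDS mice differed from control by -0.54 ± 0.25 with all libraries and by -0.15 without that library. Exercised and other CSDS mice differed by -0.20 ± 0.25.

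Btg2 (chr1:134074865-134079155), the deadenylase-recruiting antiproliferative gene, was the steadiest of the 9, with an SD of 0.21 on the log2 scale within groups. It ranged from 16.7 to 29.8 CPM in control mice (median 20.5), from 15.7 to 23.2 CPM in CSDS mice (median 21.7) and from 15.7 to 19.9 CPM in exercised CSDS mice (median 17.6). The ranges of control and CSDS mice overlapped from 16.7 to 23.2 CPM, and all 6 exercised mice lay below the medians of both other groups. The log2 fold change was -0.27 ± 0.12 in exercised CSDS mice against control (edgeR, adjusted p = 0.426; -0.15 without control replicate 2) and -0.23 ± 0.12 against CSDS mice (edgeR, adjusted p = 0.358). CSDS mice differed from control by -0.04 ± 0.12, and by 0.08 without control replicate 2.

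Ier2 (chr8:84661331-84662852) had the fewest counts of the 9, 70 to 384 per library. Its level was 3.98 to 17.4 CPM in control mice (median 7.30), 4.72 to 8.81 CPM in CSDS mice (median 7.38) and 3.57 to 6.70 CPM in exercised CSDS mice (median 4.98). All 6 exercised mice lay below the medians of both other groups, whereas the control and CSDS medians were nearly equal. Exercised CSDS mice differed from control by a log2 fold change of -0.77 ± 0.28 (edgeR, adjusted p = 0.312; -0.42 without control replicate 2), and from CSDS mice by -0.45 ± 0.28 (edgeR, adjusted p = 0.424). In CSDS against control the difference was -0.32 ± 0.27, and 0.02 without control replicate 2.

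Ier5 (chr1:155096367-155099636) ranged from 41.1 to 147 CPM in control mice (median 51.3), from 43.0 to 70.2 CPM in CSDS mice (median 60.5) and from 39.8 to 61.1 CPM in exercised CSDS mice (median 44.7). The CSDS median was the highest of the 3, and the high control mean of 66.3 CPM came from the 147 CPM of replicate 2, since the other 5 control mice averaged 50.2 ± 7.51 CPM. The log2 fold change of exercised CSDS mice against control was accordingly -0.51 ± 0.24 with all libraries (edgeR, adjusted p = 0.445) and -0.11 without control replicate 2. CSDS mice differed from control by -0.17 ± 0.24, and by 0.23 without that library. Exercised and other CSDS mice, a comparison without the control group, differed by -0.34 ± 0.24 (edgeR, adjusted p = 0.486).

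**Figure D2:**
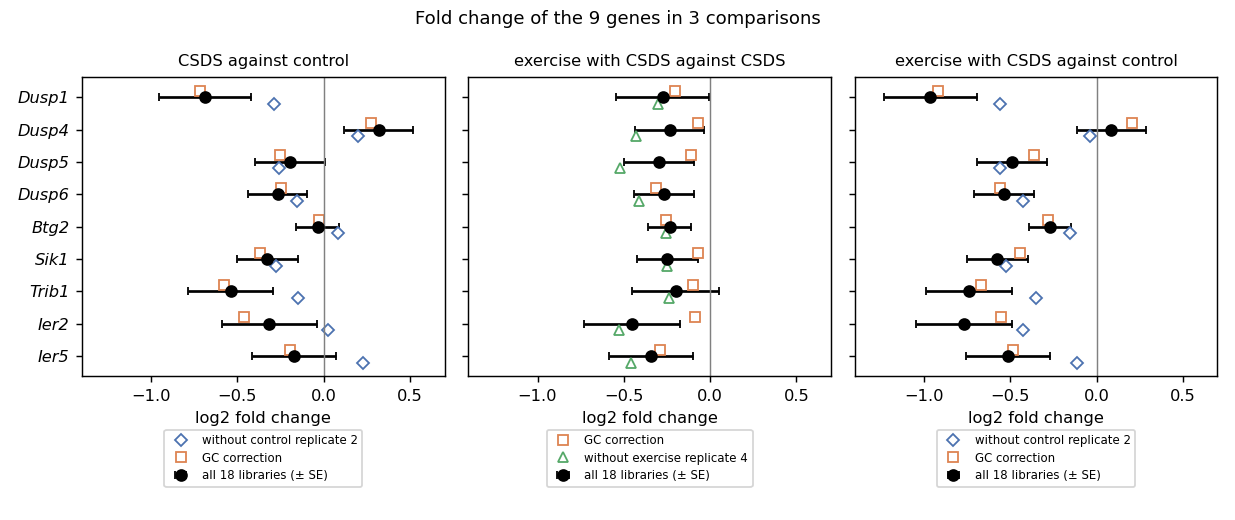
Log2 fold change of the 9 genes in the 3 comparisons with all 18 libraries (filled circles, ± SE), without control replicate 2 (diamonds), with a correction for GC content (squares) and, in exercised CSDS mice against CSDS mice, without exercised replicate 4 (triangles). Leaving out control replicate 2 moves Dusp1 from -0.96 to -0.56 and Ier5 from -0.51 to -0.11 in exercised CSDS mice against control, and the GC correction moves Ier2 from -0.45 to -0.09 in exercised CSDS mice against CSDS mice.

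In CSDS against control, 8 of the 9 genes had a log2 fold change below 0, as did 50% of all genes, and the median over the 9 was -0.27. Dusp1 and Trib1 were lower at an unadjusted p under 0.05, and none was higher, beside 1.68% of all genes lower and 1.83% higher. Without control replicate 2 the median was -0.15, 5 of the 9 values were below 0 and none of the 9 was at an unadjusted p under 0.05, beside 0.968% of all genes lower. Without the 4 libraries with raised thalamic markers, Dusp1, Dusp6, Sik1 and Trib1 were lower at that level, beside 1.97% of all genes, and the median was -0.39. None of the 9 genes separated control from CSDS mice without overlap, as 0.239% of all genes did.

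In exercised CSDS mice against CSDS mice, all 9 log2 fold changes were below 0, beside 46.5% of all genes. They lay between -0.45 (Ier2) and -0.20 (Trib1), with a median of -0.27 beside 0.02 over all genes. None was at an unadjusted p under 0.05, beside 7.46% of all genes lower and 8.1% higher, and none separated the groups without overlap, beside 0.89% of all genes. Without exercised replicate 4, however, Dusp4, Dusp5 and Dusp6 were lower at that level, beside 15.4% of all genes, and the median was -0.41. With only these 2 groups in the fit Btg2, Ier2 and Ier5 were, beside 8% of all genes. Limma voom with sample quality weights, which gives libraries that stand apart less weight, called 8 of the 9 lower at an adjusted p under 0.05, all but Trib1, and it called 17.9% of all genes lower. The adjusted p of Ier5 by voom was 0.0111, and over its 25 settings it ran from 0.0111 to 0.986. The call of these 8 genes thus depended on the test, while all 9 remained below 0 under every setting tried.

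In exercised CSDS mice against control, 8 of the 9 genes were below 0, beside 48% of all genes, with a median of -0.54 beside 0.01 over all genes. Without control replicate 2 the median was -0.43, all 9 were below 0, and 5 (Dusp1, Dusp5, Dusp6, Sik1 and Trib1) remained at an unadjusted p under 0.05, beside 4.3% of all genes lower. With control replicate 2 kept and exercised replicate 2, 3 or 6 left out, 5 genes were at that level each time, namely Dusp1, Dusp6, Sik1, Trib1 and Ier2. In those fits 3.29%, 3.16% and 4.32% of all genes were lower. Without the 4 libraries with raised thalamic markers there were 5 as well (Dusp1, Dusp6, Sik1, Trib1 and Ier2), beside 4.04% of all genes, with a median of -0.64. None of the 9 separated the groups without overlap, beside 0.562% of all genes. The control mice are shared with the first comparison and the exercised mice with the second, so these 3 sets of values are not independent.

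The libraries also differed in how gene levels depended on GC content. For each library the slope of its deviation from the mean library on the GC content of transcripts was taken, and it ran from -0.09 to 0.31 (log2 per 10 points of GC) in control mice, from -0.15 to 0.28 in CSDS mice and from -0.44 to 0.19 in exercised CSDS mice, 5 of which had a slope below 0. Dusp5 and Dusp4 followed this slope most closely. For Dusp5 the values were r = 0.79 and rho = 0.85 over 18 libraries (permutation, Benjamini-Hochberg adjusted over 9 genes, p = 0.00108 and p = 0.00018), and r = 0.78 without the libraries farthest from the median slope. Within groups r was 0.76 in control mice, 0.87 in CSDS mice and 0.76 in exercised CSDS mice. Dusp4 gave r = 0.70 and rho = 0.76 (adjusted p = 0.00513 and 0.00202), r = 0.70 without the 2 farthest libraries, r = 0.80 without control replicate 2 (Dusp5 0.79), and within-group values of 0.78, 0.94 and 0.84. Dusp6 gave r = 0.57 and rho = 0.68 (adjusted p = 0.0393 and 0.00747), r = 0.58 without the 2 farthest libraries, and within-group values of -0.06, 0.85 and 0.62. Pooled over the groups, the other genes rose with the slope too, and more closely without control replicate 2, but they did not do so within every group. For Btg2, Trib1, Ier2 and Ier5 rho was 0.56 to 0.60 over all libraries (permutation, adjusted p = 0.0192 to 0.022) with r of 0.27 to 0.41 (adjusted p = 0.145 to 0.334), and for Sik1 r was 0.55 (adjusted p = 0.0403) and rho 0.47 (0.0531). In the absence of control replicate 2 these 5 genes gave r of 0.62 to 0.68 (adjusted p = 0.0072 to 0.00981). The r of Sik1 went to 0.37 there without the 2 farthest libraries. Dusp1 gave r = 0.18 and rho = 0.46 over all libraries (adjusted p = 0.487 and 0.0531) and r = 0.44 and rho = 0.54 without control replicate 2 (adjusted p = 0.0777 and 0.0293). Within control mice, which include replicate 2, r was -0.50 (Dusp1), -0.47 (Btg2), -0.43 (Ier5), -0.34 (Ier2), -0.27 (Trib1) and 0.54 (Sik1). For the same genes r was 0.72 to 0.91 within CSDS mice and -0.08 to 0.73 within exercised CSDS mice. With group means removed it was -0.04 for Dusp1, 0.10 to 0.22 for Btg2, Trib1, Ier2 and Ier5, and 0.48 for Sik1.

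The share of counts from mitochondrially encoded genes, 1.71% to 5.10% per library, moved against Dusp4 and Dusp5. Dusp4 gave r = -0.83 and rho = -0.83 with it (adjusted p = 0.00036 and 0.00027), with -0.87, -0.93 and -0.85 within control, CSDS and exercised CSDS mice and -0.85 without the 2 farthest libraries. Dusp5 gave r = -0.75 and rho = -0.76 (adjusted p = 0.00202 and 0.00207), with -0.83, -0.91 and -0.73 within groups and -0.71 without the 2 farthest libraries. Dusp6 gave r = -0.41 and rho = -0.48 over all libraries (adjusted p = 0.211 and 0.144) and r = -0.72 and rho = -0.72 without control replicate 2 (adjusted p = 0.00393 and 0.00456). Exercised replicate 4, the library with the highest Dusp4 level, had the lowest mitochondrial share (1.71%) and the one slope above 0 in its group.

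**Figure D3:**
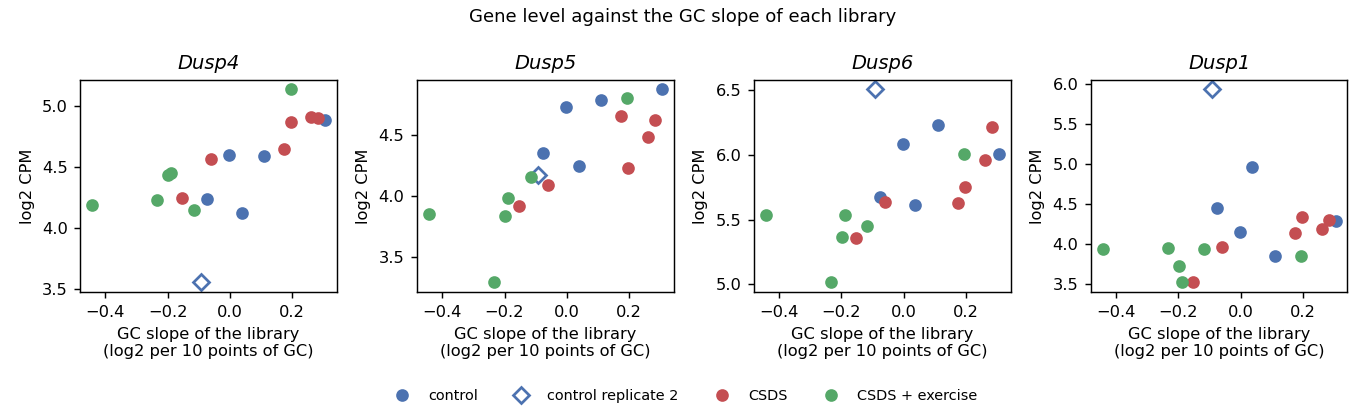
Log2 CPM of Dusp4, Dusp5, Dusp6 and Dusp1 against the GC slope of each library, 1 point per library coloured by group, with control replicate 2 as an open diamond. Dusp4 and Dusp5 are higher in libraries with a higher slope in each group (r = 0.70 and r = 0.79 over 18 libraries), and most exercised CSDS mice sit at slopes below 0.

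With the GC trend of each library removed as an offset, the log2 differences between exercised and other CSDS mice shrank to -0.07 for Dusp4 and Sik1, -0.09 for Ier2, -0.10 for Trib1 and -0.11 for Dusp5. Those of Dusp6 (-0.31), Ier5 (-0.29) and Btg2 (-0.25) stayed near their uncorrected values (-0.27, -0.34 and -0.23), and that of Dusp1 went from -0.28 to -0.20. The median over the 9 genes went from -0.27 to -0.11. In exercised CSDS mice against control, 6 genes were lower at an unadjusted p under 0.05 with the correction (Dusp1, Dusp5, Dusp6, Btg2, Sik1 and Trib1), beside 2.39% of all genes, with a median of -0.49. With the correction and without control replicate 2 these were Dusp1, Dusp5, Dusp6 and Sik1, beside 2.63% of all genes, and the median went to -0.27.

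Most pairs of the 9 genes were positively correlated across libraries, and pairs of other genes were not examined for comparison. Of their 36 pairs, 31 had a positive Pearson correlation of log2 CPM over 18 libraries, with a median r of 0.57, and 17 passed an adjusted p of 0.05 by both Pearson and Spearman permutation tests (Benjamini-Hochberg over the 36 pairs). Without control replicate 2 all 36 were positive, the median was 0.52 and 12 passed by both. The libraries share depth, GC slope and tissue composition across genes, which such correlations include. With the GC trend removed, 29 pairs were positive and 7 negative, with a median of 0.52 over all libraries and 0.37 without control replicate 2. The lowest values without that library were those of Dusp1 with Dusp4 (-0.27), Sik1 with Ier5 (-0.23) and Dusp5 with Ier2 (-0.19), and Trib1 with Ier5 went from 0.77 to 0.14 when it was left out.

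Dusp1 and Trib1 were the closest pair over 18 libraries, with r = 0.93 and rho = 0.87 (permutation, adjusted p = 0.00072 for rho). Without the 2 libraries farthest from the median of Dusp1, control replicates 2 and 3, r was 0.82, without control replicate 2 alone it was 0.79, and with the GC trend removed it was 0.92, or 0.76 without control replicate 2. Within groups r was 0.91 in control mice, a value that includes replicate 2, 0.91 in CSDS mice and 0.66 in exercised CSDS mice. Dusp5 and Dusp6, the pair of ERK-directed phosphatases, gave r = 0.75 and rho = 0.77 (adjusted p = 0.00297 for rho), r = 0.64 without the 2 libraries farthest from the median of Dusp5, r = 0.90 without control replicate 2 and r = 0.86 with the GC trend also removed. Within exercised CSDS mice their r was 0.96, within CSDS mice 0.71 and within control mice 0.13.

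Dusp4 went with Dusp5 (r = 0.57 and rho = 0.64 over 18 libraries, permutation, adjusted p = 0.026 and 0.019) but with none of the other 7 genes at an adjusted p under 0.05 while control replicate 2 was included. Its r with Dusp1 was -0.46 and its rho -0.07 (adjusted p = 0.822 for rho), and r was 0.03 without that library and 0.35 without the 2 libraries farthest from the median of Dusp1. Within groups the r of Dusp4 with Dusp1 was -0.90 in control mice, which include replicate 2, 0.96 in CSDS mice and -0.23 in exercised CSDS mice. Dusp1 with Dusp5 likewise gave -0.83, 0.73 and -0.09. With Dusp6 the r of Dusp4 went from 0.18 to 0.70 when control replicate 2 was left out, and with Ier5 from -0.19 to 0.66.

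**Figure D4:**
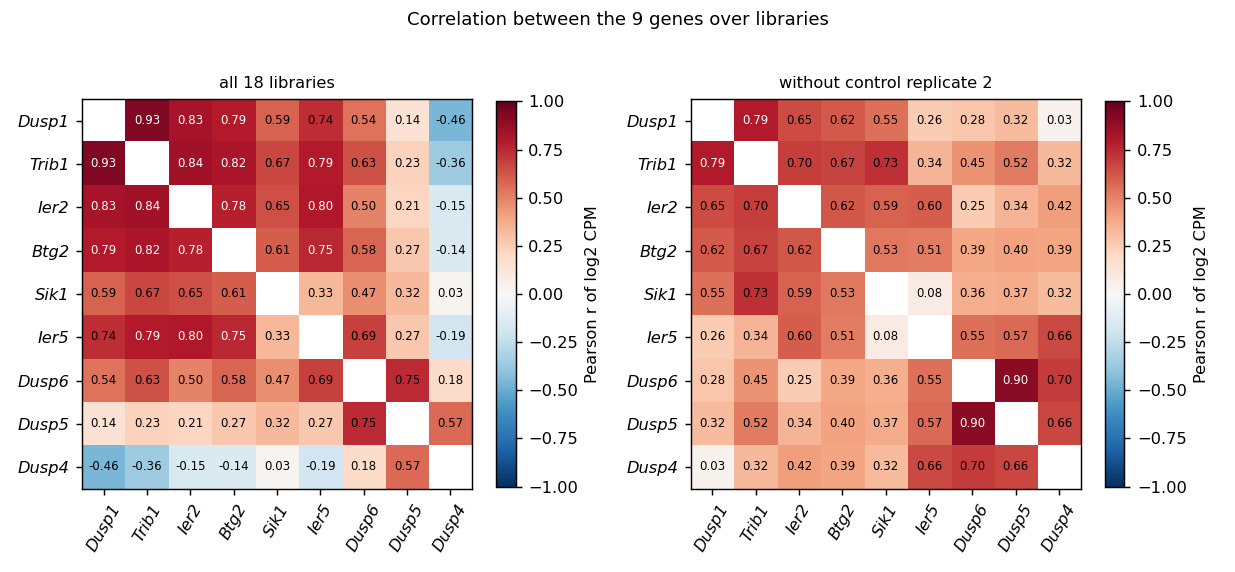
Pearson r of log2 CPM for every pair of the 9 genes, over all 18 libraries on the left and without control replicate 2 on the right, from blue (-1) to red (1). Dusp1, Trib1, Ier2 and Btg2 form a block of high values on both sides, Dusp5 and Dusp6 reach 0.90 on the right, and the blue cells of Dusp4 on the left are absent on the right.

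Genes with the most similar pattern were taken from 13481 tested genes with a mean of at least 1 CPM, by Pearson r of log2 CPM over 18 libraries and with no test, and the r of the same genes without control replicate 2 is given after each. For the cytoplasmic phosphatase Dusp6 they were the activity-induced genes Egr2 (0.91, then 0.88), Nr4a1 (0.90, 0.87) and Arc (0.89, 0.86). For Btg2 they were Npas4, a transcription factor gene of active neurons (0.89, 0.80), Fam43a (0.87, 0.78) and Otud1 (0.87, 0.78). For Dusp1 they were Cplx1 (0.93, 0.84), Kcnab3 (0.91, 0.72) and Fos (0.90, 0.82). In control replicate 2 Arc was at 517 CPM against 42.0 to 202 elsewhere and Fos at 48.7 CPM against 2.96 to 20.6. Dusp5 was nearest to Tut1, Spata2l and Tent4a (0.95, 0.94 and 0.94 with and without that library). Dusp4 was nearest to Ppp1r10 (0.96, 0.95), Kdm2b (0.96, 0.94) and Sipa1l3 (0.96, 0.94). Sik1 was nearest to Tom1 (0.88, 0.91), Tgfb3 (0.82, 0.79) and Fam129b (0.81, 0.80).

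The r of the genes nearest to Trib1, Ier2 and Ier5 also fell without control replicate 2. Trib1 was nearest to Lpcat4 (0.92, 0.77), Dnajb1 (0.91, 0.78) and Lasp1 (0.90, 0.71), Ier2 to Lynx1 (0.91, 0.82), Scrt1 (0.90, 0.82) and Fam43a (0.89, 0.80), and Ier5 to Cabp1 (0.95, 0.87), Prkar1b (0.95, 0.85) and Efhd2 (0.95, 0.85). Cabp1, for example, was at 181 CPM in that library against at most 77.7 in the others. With that library left out from the start, the nearest to Dusp6 were Ccnjl (0.89), Egr4 (0.88) and Egr1 (0.88), and those of Dusp1 were Zbtb7b (0.85), Cplx1 (0.84) and Slc25a38 (0.82). Those of Btg2 were then Saraf, Prkaca and Snrpa (0.81 each). The 10 genes nearest to the mean z-score of the 9 were Arc (0.96, 0.93), Cdipt, Ier5l, Junb, Irf2bp2, Dexi, Lpcat4, Npas4, Nr4a1 and Scrt1 (0.90, 0.83). With control replicate 2 left out from the start they were Klf2 (0.94), Gorasp1, Dexi, Ctu1, Irf2bp2, Ube2z, Arc (0.92), Zfp276, Ccdc92 and Eef1a2 (0.91). Arc, Irf2bp2 and Dexi were in both lists, while Junb, Npas4 and Nr4a1 were in the first only.

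The rest of the pathway was described from lists of genes. Of 19 inducible transcription factor genes and related early genes, 0 passed the adjusted threshold in any comparison with edgeR, and 9 were lower and 0 higher at an unadjusted p under 0.05 in exercised CSDS mice against control, beside 4.39% of all genes lower and 6.8% higher. Their median log2 fold change was -0.63 there, beside -0.54 for the 9 genes. After leaving out control replicate 2 the count was 9 again and the median -0.35, beside -0.43 for the 9 genes. Egr2 gave -2.34 ± 0.50 (adjusted p = 0.116), Junb -0.97 ± 0.22 (adjusted p = 0.14), Fos -1.59 ± 0.37 (adjusted p = 0.146) and Nr4a1 -1.09 ± 0.27 (adjusted p = 0.175), all by edgeR. Egr2 was at 15.5 CPM in control replicate 2 and at most 5.46 CPM elsewhere, and without that library the values were -1.70 for Egr2, -0.82 for Junb, -1.11 for Fos and -0.77 for Nr4a1 (edgeR, adjusted p = 0.186 to 0.228). The mean level of Fos was 20.05 CPM in control mice (14.3 CPM without replicate 2), 8.78 CPM in CSDS mice and 6.63 CPM in exercised CSDS mice, the same order as in 8 of the 9 genes. Egr1, Arc, Npas4 and Nr4a1 had this order too with all libraries. Without control replicate 2 the control mean of Npas4 was 6.51 CPM, below its 7.23 CPM in CSDS mice. The log2 differences of CSDS mice from control were then -0.70 for Fos, -0.54 for Nr4a1, -0.34 for Arc, -0.04 for Egr1 and 0.15 for Npas4.

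The 30 other feedback inhibitors measured (Spry, Spred, Socs and Rgs genes, inhibitors of NF-kappaB and others) had a median of -0.13 in the same comparison, and 10 were lower and 0 higher at an unadjusted p under 0.05, or 6 and 0 without control replicate 2, with a median of -0.17. The smallest p-values were those of Nfkbia, which retains NF-kappaB in the cytoplasm (-0.54 ± 0.15, edgeR, adjusted p = 0.207), the clock gene Per1 (-0.48 ± 0.17, 0.31), the EGF receptor inhibitor Errfi1 (-0.27 ± 0.10, 0.347) and the cytokine signalling inhibitor Socs2 (-0.25 ± 0.11, 0.4). The list of paralogs held 16 genes related to the 9 by family or by name, among them Ier3, which was also on the list of 19 inducible genes. These 16 genes had a median of 0.02, with 2 lower (Tob2, -0.46 ± 0.15, and Ier5l, -0.64 ± 0.24) and 0 higher. Of all genes, 4.39% were lower and 6.8% higher at that level. Without control replicate 2, 1 paralog was lower (Tob2) and 1 higher (Dusp16, 0.28), beside 4.3% and 7.43% of all genes. The value of Ier5l was then -0.42.

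The kinase cascades that the phosphatases act on were centred near 0. Of 34 Ras-ERK genes, 3 were higher and 2 lower at an unadjusted p under 0.05 in exercised CSDS mice against control, with a median of 0.02. These counts were near those of all genes, of which 6.8% were higher and 4.39% lower. Among the smallest p-values, the Ras GTPase-activating gene Nf1 gave 0.30 ± 0.08, the kinase gene Braf 0.36 ± 0.11, the ERK kinase gene Map2k2 -0.30 ± 0.10 and Hras -0.22 ± 0.07 (edgeR, adjusted p = 0.194 to 0.286). Of 18 JNK and p38 genes tested 1 was higher and 1 lower, with a median of -0.10, and of 24 CREB, CRTC and SRF genes 2 were higher and 2 lower, with a median of -0.04. Without control replicate 2, 5 Ras-ERK genes were higher and 3 lower, beside 7.43% and 4.3% of all genes. For JNK and p38 the counts were 0 and 2, and for CREB, CRTC and SRF 4 and 1. In exercised CSDS mice against CSDS mice, 4 Ras-ERK genes were higher and 4 lower, beside 8.1% and 7.46% of all genes. There the JNK and p38 counts were 1 and 3, and those of the last list 4 and 3. Medians there were 0.03, -0.03 and -0.06. None of these genes passed the adjusted threshold in edgeR with all 18 libraries.

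In CSDS against control, 5 of the 19 inducible genes and 4 of the 30 other inhibitors were lower at an unadjusted p under 0.05 and none was higher, beside 1.68% of all genes lower, with medians of -0.28 and -0.10. Without control replicate 2 the counts were 2 (Fos and Nr4a1) and 2 (Errfi1 and Nfkbia), beside 0.968% of all genes, with medians of -0.03 and -0.05. In exercised CSDS mice against CSDS mice 3 inducible genes (Junb, Egr4 and Fosl2) and 1 other inhibitor (Socs2) were lower, with medians of -0.26 and -0.07. As 7.46% of all genes were lower in that comparison, the 1 of 30 was below that share.

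**Figure D5:**
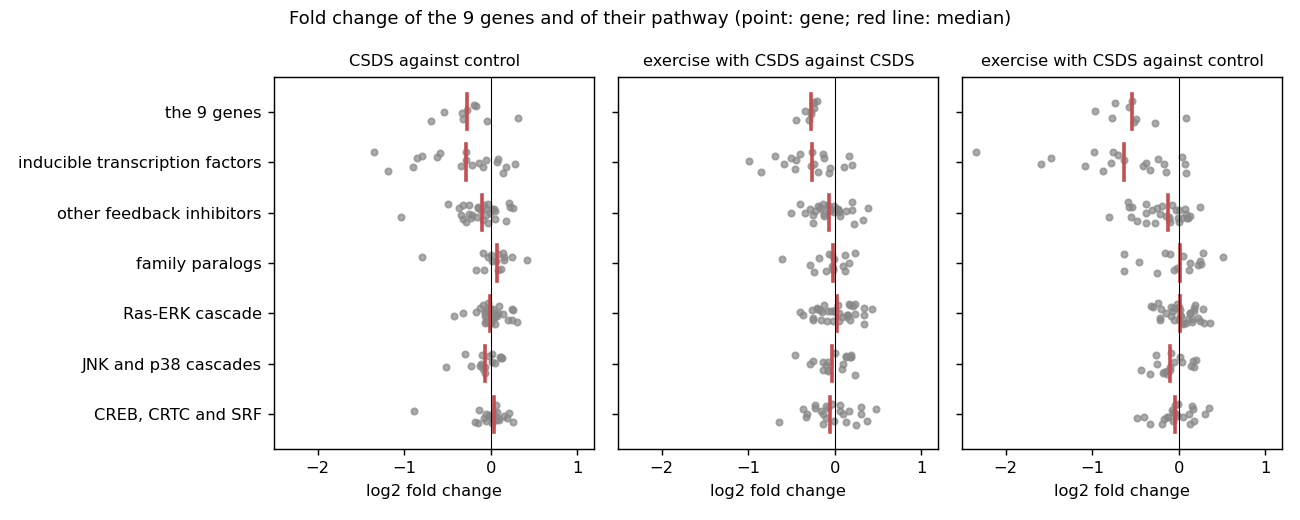
Log2 fold change of the 9 genes and of the genes of 6 lists in the 3 comparisons, 1 grey point per gene, with the median of each list as a red line and a black line at 0. In exercised CSDS mice against control the medians of the 9 genes (-0.54) and of the inducible transcription factors (-0.63) lie left of the other lists, whose medians lie between -0.13 and 0.02.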

How the data were processed

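Gene levels were measured by poly(A)-enriched, stranded RNA-seq of 18 hippocampal libraries with an RNA integrity number of at least 7, all labelled as the same batch, per the labels' protocols. The authors deposited estimated counts per gene (expected counts, not normalized). Per the submitters' processing notes fastp, HISAT2, RSEM and the build GRCm38 (mm10) were used (versions, annotation release and strand setting not given in the sources used here). Values were rounded to whole numbers, since 22.7% of those above 0 had decimals. RSEM divides reads shared between near-identical genes.

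filterByExpr (count 10, total 15) set the filter on low genes, libraries were TMM-scaled, and edgeR 4.0.16 (R 4.3.3) fitted 1 quasi-likelihood model to all 18 libraries, with Benjamini-Hochberg adjustment over 16738 genes and a threshold of 0.05. The scripts were tested on simulated data. Log2 CPM used a prior count of 2. Alternatives were DESeq2 1.42.0, limma 3.58.1 voom with quality weights, other scaling and filters, a GC offset (smooth with 6 degrees of freedom; 98.1% of genes had a GC value), a replicate block, only the groups compared, leaving out each library, and leaving out 4 libraries with raised thalamic markers. Correlations used 100000 permutations. Lengths and GC came from GENCODE M21 transcripts, coordinates and promoters from RefSeq GRCm38.p6. Protein sequences were not used here. Replicate numbers did not pair libraries (18 same-number pairs, r from -0.47 to 0.25, 1 above 0.1). No 2 libraries of a group were alike within counting noise (45 pairs, lowest chi-square per gene 9.71).

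The 9 genes and the lists were chosen with earlier results of these data known. The text names all 9, up to 4 genes of each list with the smallest p, the 3 genes most similar to each of the 9 and the 10 most similar to their mean z-score, and Fos, Egr1, Arc, Npas4 and Nr4a1.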

Additional observations from a re-analysis of the deposited data

Results flagged for a closer look

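Among the 27 sets of values (9 genes in 3 groups of 6 mice), 8 held a mouse whose distance to its nearest neighbour exceeded Dixon's 95% limit for the range of its group, which chance exceeds in about 1 in 20 groups. Control replicate 2 was the highest of its group for Dusp1 (60.9 CPM, next 30.9), Btg2 (29.8, next 21.0), Trib1 (41.2, next 17.6), Ier2 (17.4, next 8.72) and Ier5 (147, next 60.9). This is the library with 1928 CPM of neocortical markers.

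CSDS replicate 4 was the lowest of its group for Btg2 (15.7 CPM, next 20.9) and Sik1 (9.35 CPM, next 14.2). Its GC slope, -0.15, was the lowest of its group and its mitochondrial share, 4.23%, the highest; their part in these values was not tested. Exercised replicate 4 was the highest of its group for Dusp4 (35.05 CPM, next 21.8), with the highest GC slope of its group, 0.19.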

How the results depend on the processing

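Of 684 recomputed log2 fold changes of the 9 genes, 20 changed sign and 9 passed the adjusted threshold under an alternative. In CSDS against control, Btg2, Ier2 and Ier5 turned positive with voom (0.093, 0.048 and 0.19), and without control replicate 2 in DESeq2 (0.080, 0.023 and 0.23) and voom (0.12, 0.12 and 0.24); Btg2 and Ier5 did so with the GC correction without it (0.087 and 0.22). Leaving out 1 library gave Btg2 -0.097 to 0.082, Ier2 -0.46 to 0.024 and Ier5 -0.28 to 0.23, with the values above 0 coming without control replicate 2 and, for Btg2, also without CSDS replicate 4 (0.034). In exercised CSDS mice against control, Dusp4 turned negative with voom (-0.0032), without control replicate 2 (-0.037; DESeq2 -0.045, voom -0.066) and without exercised replicate 4 (-0.12; -0.12 to 0.21 leaving out 1 library). Settings combining the absence of control replicate 2, or of exercised replicate 4, with another choice, and leaving out the 4 libraries with raised thalamic markers, were added after seeing the data, and the cause of these changes was not tested.

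Counts of called genes depended on the test. DESeq2 called 1, 156 and 109 genes in CSDS against control, exercised against CSDS and exercised against control (89 in the last without control replicate 2), and voom 0, 5567 and 183 (135). In exercised against CSDS, 2 genes passed without a filter, 1 with only the compared groups and 1 with the GC correction. There voom called 5567 of the 16738 genes tested. Among them were 8 of the 9 genes, 4 of 16 paralogs, 7 of 30 other inhibitors and 7 of 19 inducible factors. In the cascades they were 16 of 34 Ras-ERK, 7 of 18 JNK and p38 and 14 of 24 CREB, CRTC and SRF genes. Whether any list exceeded the share of all genes was not tested. The 156 genes called there by DESeq2 held 2 Ras-ERK genes and 1 CREB, CRTC and SRF gene. In exercised against control DESeq2 called 0.589% of all genes, among them 1 of the 9 genes (Dusp1), 4 of 19 inducible factors and 1 of 34 Ras-ERK genes. Without control replicate 2 it called 3 inducible factors, and neither Dusp1 nor a Ras-ERK gene. Among the 183 genes called by voom were 1 of 30 other inhibitors (2), 4 inducible factors (4) and 1 Ras-ERK gene (1), the values without control replicate 2 in brackets. The 3 genes called there by edgeR became 0 without a filter, at 1 CPM in 6 libraries, with only the compared groups, with the GC correction (also without control replicate 2) and with the replicate block, alone or with the GC correction, and 1 without the 4 libraries with raised thalamic markers.

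Leaving out 1 library gave 0 to 625 called genes in exercised against CSDS (625 of 16856 tested without exercised replicate 4) and 0 to 13 in exercised against control. By list the ranges in the former were 0 to 2 for inducible factors, Ras-ERK, JNK and p38, and CREB, CRTC and SRF genes and 0 to 1 for paralogs. Each of these upper ends came from the fit without exercised replicate 4. In the latter the range was 0 to 1 for inducible factors. None of the 9 genes was called. The replicate block called none of the 9 genes either; 0 of 18 libraries correlated best with its own number.

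Without control replicate 2 the correlations of Dusp4 with Dusp1, Btg2, Trib1, Ier2 and Ier5 turned positive (0.032, 0.39, 0.32, 0.42 and 0.66). With group means removed, those of Dusp5 with Dusp1, Sik1, Trib1 and Ier2 turned negative (-0.24, -0.016, -0.053 and -0.088).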

Other observations

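The mean z-score of log2 CPM over the 9 genes ran from -0.14 to 1.75 in control mice, from -0.95 to 0.69 in CSDS mice and from -0.97 to 0.17 in exercised CSDS mice. The highest of all was control replicate 2, and the next was control replicate 4 at 0.71. CSDS replicate 4 was the one CSDS mouse near the lowest exercised mice, and exercised replicate 4 was the one exercised mouse above 0.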
